A study of Mus musculus with 13 samples.

Results

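Steroid hormones are modified in the tissues they act on, and 7 genes of such enzymes were followed here in fibroblasts of the mouse mammary gland: Hsd11b1, Akr1c14, Akr1c18, Srd5a1, Hsd17b11, Cyp1b1 and Sult1e1. They were taken by symbol from the 32285 genes of the count matrices, and they were chosen by their CPM per library and their detection by fibroblast state in these data. Their levels are therefore a description and carry no test. The values come from 100523 of 120355 barcodes in 13 libraries. A barcode was kept as a fibroblast if it had 500 to 7500 genes, at most 10% mitochondrial UMIs and at least 50 UMIs of Dcn, Lum and Col1a2 per 10000, and no UMI of Epcam, Pecam1, Rgs5, Sox10, Ptprc or Myog.

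The libraries were single-cell 3′ RNA-seq (10x Chromium) of sorted stroma from female mice. The stage libraries, 1 per stage from 2 females, were wildtype C57BL/6 at puberty (4 weeks), adult (virgin, 9 weeks), pregnancy (day 14.5), lactation (day 10) and involution (day 4), sorted as negative for CD24 and for the lineage markers CD45, CD31 and TER-119. Glands of 9-week wildtype C57BL/6 mice with placebo (2 libraries) or with MPA+E (2 libraries) went through the same sort. MPA+E is medroxyprogesterone acetate, a synthetic progestin, given with estradiol as pellets under the skin. The last 4 libraries were from raGFP-Wnt1 mice (Pdgfra-GFP KI/+ MMTV-Wnt1 T/+, mixed C57BL/6 and FVB), with a hyperplastic gland and a tumour from each of 2 mice, aged 45 weeks (mouse 1) and 17 weeks (mouse 2). Their cells were sorted as lineage-negative and GFP-positive, and GFP is driven by the Pdgfra locus, so the sort takes cells in which that locus has been active, and the Wnt1 transgene is driven by the mouse mammary tumour virus promoter. Each placebo and MPA+E library pooled 2 mice, and the p-values below measure the spread between libraries.

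As background, the enzymes decide how much active hormone a cell is exposed to. 11-beta-hydroxysteroid dehydrogenase type 1 (Hsd11b1) regenerates active corticosterone from its inert keto form inside the cell, using NADPH that H6pd supplies in the endoplasmic reticulum. The aldo-keto reductases Akr1c18 (20-alpha-hydroxysteroid dehydrogenase) and Akr1c14 (3-alpha-hydroxysteroid dehydrogenase) convert progesterone and reduced steroids such as dihydrotestosterone to weaker products, and Srd5a1 (steroid 5-alpha reductase) acts before Akr1c14 on the same route. Hsd17b11 is a 17-beta-hydroxysteroid dehydrogenase found on lipid droplets, Cyp1b1 hydroxylates estradiol to a catechol, and Sult1e1 inactivates estrogens by adding sulfate. Progesterone, estrogen and glucocorticoids all shape the mammary gland through its cycles of growth, milk production and regression.

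In mm10 the genes Akr1c14 (ENSMUSG00000033715, chr13:4049011-4090688, plus strand) and Akr1c18 (ENSMUSG00000021214, chr13:4132615-4150654, minus strand) lie in the same cluster, 41926 bases apart, and no protein-coding gene lies wholly between them. Members of this family are alike in sequence, and how reads that match several of them were counted is not given in the sources used here, so their split between paralogs is uncertain. Srd5a1 (ENSMUSG00000021594, chr13:69573449-69611442, minus) is on the same chromosome. Hsd11b1 (ENSMUSG00000016194) is at chr1:193221634-193264075, Hsd17b11 (ENSMUSG00000029311) at chr5:103989762-104021919, Sult1e1 (ENSMUSG00000029272) at chr5:87575969-87591594 and Cyp1b1 (ENSMUSG00000024087) at chr17:79701537-79715061, all on the minus strand.

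Promoter sequence is given for 4 genes whose libraries did not overlap between placebo and MPA+E, to show what their start sites hold. Hsd11b1 did not overlap either, but its whole window lies in annotated exons. The share of all genes without overlap was not computed, and nothing is read from this choice. The sequences are from RefSeq (GRCm38.p6), run 5′ to 3′ on the gene's strand, and end at or before the RefSeq start, and capitals mark the motif matches described below. Annotated exon bases were left out, so Akr1c14 covers positions -250 to -51 (chr13:4059341-4059540), Akr1c18 -250 to -9 (chr13:4150655-4150896), and Cyp1b1 (chr17:79715062-79715311) and Sult1e1 (chr5:87591612-87591861) -250 to -1. The RefSeq start of Akr1c14 lies inside the annotated gene.
Akr1c14: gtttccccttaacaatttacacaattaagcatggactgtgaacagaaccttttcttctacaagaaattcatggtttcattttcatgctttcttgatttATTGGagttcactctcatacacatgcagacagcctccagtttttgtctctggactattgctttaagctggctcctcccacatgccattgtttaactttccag
Akr1c18: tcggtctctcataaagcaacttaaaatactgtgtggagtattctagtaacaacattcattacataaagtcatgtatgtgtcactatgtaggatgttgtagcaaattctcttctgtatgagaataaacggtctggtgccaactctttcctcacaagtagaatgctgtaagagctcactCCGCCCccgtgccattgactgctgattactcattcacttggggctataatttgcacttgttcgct
Cyp1b1: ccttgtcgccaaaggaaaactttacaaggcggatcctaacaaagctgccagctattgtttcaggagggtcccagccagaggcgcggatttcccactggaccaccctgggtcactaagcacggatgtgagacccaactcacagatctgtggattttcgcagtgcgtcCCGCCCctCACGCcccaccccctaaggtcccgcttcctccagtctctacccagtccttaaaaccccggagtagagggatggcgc
Sult1e1: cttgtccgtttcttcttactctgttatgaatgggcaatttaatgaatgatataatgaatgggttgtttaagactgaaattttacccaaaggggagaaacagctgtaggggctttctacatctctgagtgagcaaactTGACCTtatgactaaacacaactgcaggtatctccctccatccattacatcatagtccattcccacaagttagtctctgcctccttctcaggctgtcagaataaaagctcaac
The whole windows of all 7 genes (250 bases before the start) were searched on both strands. The estrogen receptor arm AGGTCA, present in 13.8% of 27025 such windows, was found only in Sult1e1 among the 7, at -113. The Ahr-Arnt core GCGTG (28.2% of windows) was found in Cyp1b1 at -76, and also in Hsd11b1, Hsd17b11 and Srd5a1. The CCAAT box (34.5%) was found in Akr1c14 at -152 and in Hsd11b1, Hsd17b11 and Srd5a1, and the GC box GGGCGG (32.9%) in Akr1c18 at -73, Cyp1b1 at -84, Hsd17b11 and Srd5a1. Neither AGAACA (16.2%), the arm of the site bound by glucocorticoid and progesterone receptors, nor the full palindromic site (0.348%, which holds that arm), nor TATAAA (12.97%) was in any of the 7 windows. A match is a description of these letters and not evidence of binding.

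Levels are given as CPM, the UMIs of a gene per 1000000 UMIs of all genes, summed over the fibroblasts of a library. Fibroblasts numbered 4236 to 11951 and their UMIs 47521842 to 102522735 per library, with a median of 3990 to 20256 UMIs per cell. Intervals are 95% (exact Poisson for a level, exact binomial for a ratio) and cover counting error only. In sums over cells, fewer cells of a type and less RNA per cell cannot be told apart, and 3′ counts do not allow levels of different genes to be compared. The fibroblast markers Dcn, Lum, Pdgfra and Col1a2 summed to 17212 to 26439.8 CPM in every library, and all but Pdgfra are part of the rule that chose the cells. Of other cell types, epithelial markers summed to 33.4 CPM in pregnancy against at most 1.51 elsewhere. Leukocyte markers (Ptprc, C1qa, Cd68 and Cd3e) summed to 4.65 to 14.3 CPM in the raGFP-Wnt1 libraries against at most 3.24 elsewhere, with Ptprc at 0 in all by the rule. Most of that difference was Cd3e, at 2.86 to 12.7 CPM against at most 0.0210 elsewhere. Cd68 lay at 2.62 to 3.43 in hyperplasia, 0.946 to 0.956 in the tumours and 0.763 to 2.80 elsewhere, and C1qa at 0.843 or less throughout. Pericyte markers summed to 9.48 to 18.0 in the tumours against at most 6.44 elsewhere. Their part in the results was not tested. Libraries shared at most 51 barcode sequences (pregnancy and MPA+E 2), and at most 0.5395% of the smaller library (pregnancy and placebo 2).

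Detection in fibroblasts and in barcodes of other types differed from gene to gene. Hsd11b1 had a UMI in 43.5% of fibroblasts, against 0.857% of 933 Epcam-positive and 1.02% of 1370 Rgs5-positive barcodes of the same libraries. Akr1c14 was seen in 21.2% of fibroblasts and in 0.429% and 0.438% of those barcodes, and Akr1c18 in 22.1% against 0.429% and 0.657%. Cyp1b1 was seen in 27.4% of fibroblasts and 15.6% of Epcam-positive barcodes but 0.949% of Rgs5-positive ones. Pregnancy gave 428 of the Epcam-positive barcodes, and there Cyp1b1 was seen in 52 of them and in 9.36% of fibroblasts. The order of these 2 shares thus differed between libraries. Hsd17b11 was widespread (31.9% of fibroblasts, 11.8% and 13.7%), and Srd5a1 was rare in fibroblasts at 2.25%. In Epcam-positive barcodes Srd5a1 was seen in 43 of 933, mostly in placebo 2 (11 of 106) and tumour 2 (19 of 134), and its order against fibroblasts differed between libraries. Other barcodes were fewer, and some held more: Hsd11b1 was seen in 8 of 26 Ptprc-positive barcodes (30.8%), Akr1c14 in 4.31% of 626 Pecam1-positive and Hsd17b11 in 23.5% of 221 Sox10-positive ones. For depth, libraries with 9 or fewer barcodes of a type were left out. Median depth per library then ran from 3990 to 20256 UMIs in fibroblasts, 4012 to 13776 in Epcam-positive and 1810 to 7465 in Rgs5-positive barcodes. It was 1289 to 4209 in Pecam1-positive and 2213 to 7707 in Sox10-positive ones, and 3967 in Ptprc-positive ones of involution, the only library left for them. At the edge of the fibroblast definition, 2174 barcodes with 50 to 75 marker UMIs per 10000 had 102 CPM Hsd11b1, 43.9 Akr1c18, 19.8 Akr1c14 and 60.01 Cyp1b1, and 977 barcodes just outside (25 to 50) had 88.2, 16.5, 11.5 and 56.4.

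**Figure D1:**
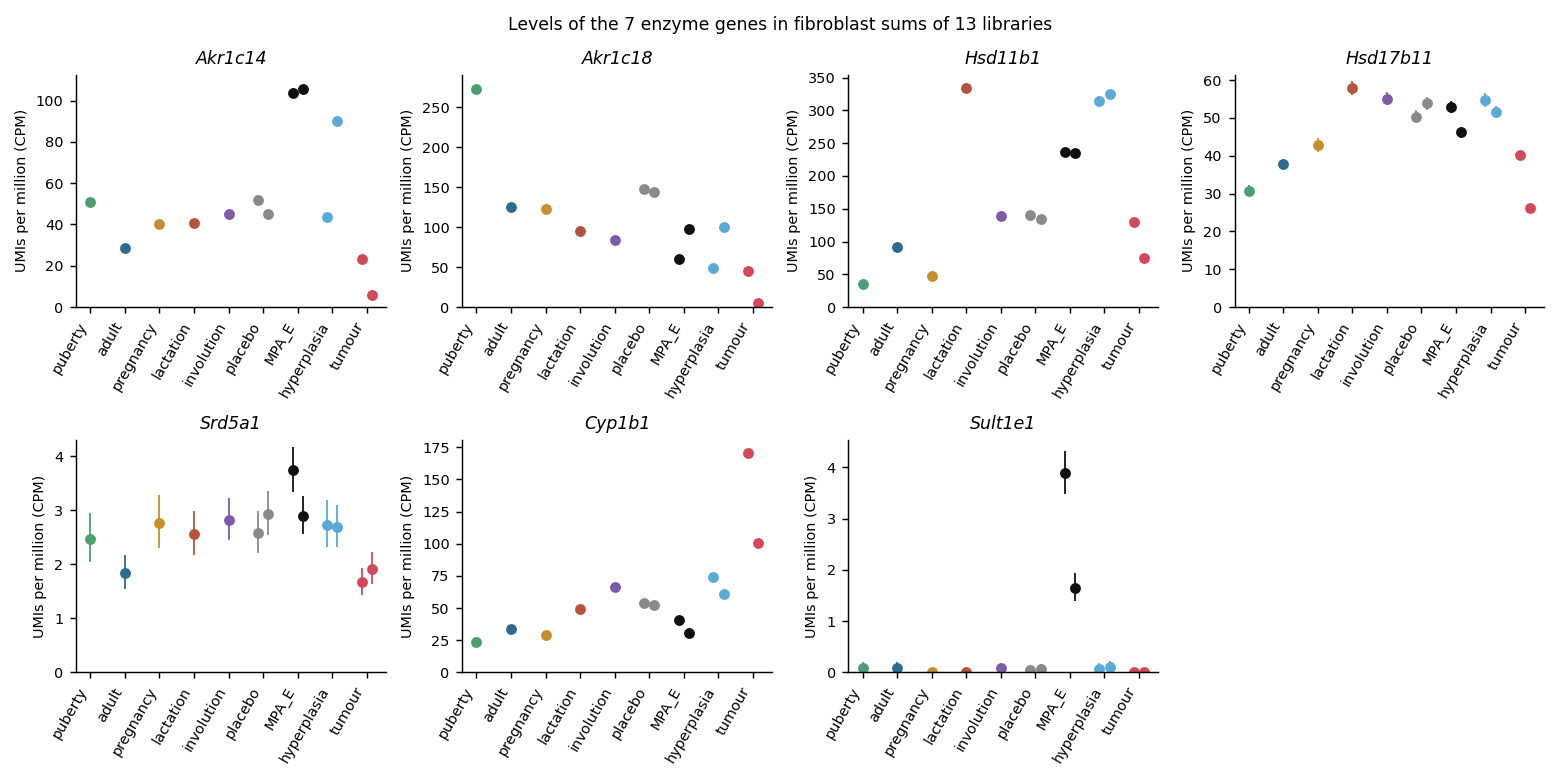
Level of each of the 7 genes in every library, as CPM on the vertical axis of each panel, with the 13 libraries in order on the horizontal axis, points for libraries and bars for the 95% Poisson interval. Hsd11b1 runs from 34.8 CPM in puberty to 335 in lactation, and Sult1e1 stands above 1 CPM only in the 2 MPA+E libraries.

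Across the stages the glucocorticoid-activating enzyme and the progesterone-inactivating enzyme ran in different orders. Hsd11b1 was at 34.8 CPM in puberty, 47.4 in pregnancy, 92.0 in adult, 139 in involution and 335 in lactation. Lactation stood 9.62-fold above puberty (95% interval 9.16 to 10.1), and each step of this order was larger than counting error. Thinned to 3000 UMIs per cell, 8.53% of fibroblasts had an Hsd11b1 UMI in puberty and 42.2% in lactation (13.6% and 56.2% before thinning), with 1003 and 368 shallower cells left out.

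Akr1c18 went the other way from puberty. It was at 272 CPM in puberty and at 125 and 122 in adult and pregnancy, and lowest at 95.4 during lactation and 83.2 during involution. Puberty was 3.27-fold above involution (3.17 to 3.37), while adult and pregnancy lay within counting error of each other (1.03-fold, 0.995 to 1.06). With 1 library per stage there is no replicate check, so these steps compare libraries.

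Akr1c14, Akr1c18's neighbour, varied less. It was at 50.7 CPM in puberty, 45.3 in involution, 40.7 in lactation, 40.1 in pregnancy and 28.8 in adult, a 1.76-fold range (1.66 to 1.87) in which lactation and pregnancy did not differ beyond counting error. Srd5a1, the step before it, was near the limit of detection, with 120 to 209 UMIs per library. It was at 2.81 CPM in involution, 2.76 in pregnancy, 2.56 in lactation and 2.46 in puberty, each within counting error of the next, and 1.84 in adult.

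Cyp1b1 and Hsd17b11 were highest in lactation and involution. Cyp1b1 was at 66.1 CPM in involution, 48.9 in lactation, 33.9 in adult, 29.0 in pregnancy and 24.0 in puberty, a 2.76-fold range (2.59 to 2.94). Hsd17b11 followed a like order at 57.8 in lactation, 55.1 in involution, 42.9 in pregnancy, 37.8 in adult and 30.8 in puberty, a range of 1.88-fold. Sult1e1 had 4 UMIs in puberty, 7 in adult, 1 in lactation and 6 in involution. These counts are too low to order the stages, and there was none in pregnancy, where 3 counts would be 0.0631 CPM.

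The fibroblasts of these stages were then divided into states by clustering, with the 7 genes and a list of other steroid genes left out of the features, and each cluster was named only from fixed markers. The names are rebuilt and may differ from those of the study: progenitor-like (such as Pi16, Dpp4, Sbsn), preadipocyte-like (Fabp4, Cd36), ECM remodelling-like (Crabp1, Stra6, Pla2g7), lobular-like (Thbs4, Bmp5), adipogenesis-regulatory-like (Gdf10, Clec11a) and Pgr Cxcl13-like. A cluster of 2966 cells led by milk protein genes (Csn1s1, Wap, Csn2) matched no fixed marker set and stayed unnamed, and 139 of the 143 cells of an epithelial-like cluster came from pregnancy. A cycling-like cluster had over 50 cells only in puberty (128) and pregnancy (135), and the ranges below are over the other 6 named states.

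Among the 6 named states, both aldo-keto reductases were highest in the progenitor-like and Pgr Cxcl13-like states. Akr1c18 in progenitor-like cells was at 493 CPM in puberty and then at 260 (adult), 251 (pregnancy), 256 (lactation) and 297 (involution). In Pgr Cxcl13-like cells it was at 508, 260, 238, 218 and 231 in the same order, and none of the other 4 states exceeded 47.2. Cycling-like cells held 279 CPM in puberty and 139 in pregnancy, the unnamed clusters 99.1 to 355 (median 206) over the 5 libraries, and the epithelial-like cluster 55.2 in pregnancy. In puberty 45.1% of all Akr1c18 UMIs came from Pgr Cxcl13-like and 40.8% from progenitor-like cells, 1287 and 1679 of 7121 fibroblasts.

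Akr1c14 was highest in Pgr Cxcl13-like cells in 5 of 5 libraries. There it was at 115.5 CPM in puberty, at 72.8 in adult and 103.8 in pregnancy, and at 126.8 during lactation and 106.8 during involution, on average 4.40-fold the mean of the other 5 states. Progenitor-like cells came next in every library, with 34.5 to 89.7 CPM, and the unnamed clusters held 30.4 to 84.6 (median 61.3). The adipogenesis-regulatory-like state held 6.47 to 9.78 CPM. Akr1c14 in ECM remodelling-like cells lay at 5.70, 5.43 and 6.11 in puberty, adult and pregnancy and at 29.3 and 24.0 in lactation and involution.

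Hsd11b1 was lowest in progenitor-like cells in every stage, with 6.38 CPM in puberty, 11.1 in pregnancy, 17.4 in involution, 19.3 in adult and 73.3 in lactation. In ECM remodelling-like cells it was at 82.1, 90.4, 309, 457 and 731 in that order of stages, and this was the highest state in 3 of 5 libraries. Lobular-like cells were above them in puberty (105.5 CPM) and within 1 CPM of them in pregnancy (90.9). In lactation each of the 6 states was above its own level in the other 4 stages, from 73.3 in progenitor-like to 731 in ECM remodelling-like cells. The ECM remodelling-like state had 125 cells in puberty and 1329 to 2770 in the other stages.

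Cyp1b1, which acts on estradiol, was low in both states where Akr1c18 was high, but also in lobular-like cells (10.7 to 38.1 CPM), where Akr1c18 lay at 7.33 to 27.1. It lay at 65.8 to 154.2 CPM in adipogenesis-regulatory-like cells, the highest state in 4 of 5 libraries, at 51.3 to 89.4 in preadipocyte-like and at 31.9 to 84.8 in ECM remodelling-like cells. In progenitor-like cells it ran from 3.01 to 15.0 and in Pgr Cxcl13-like cells from 4.33 to 25.3. Hsd17b11 showed little contrast, with 28.9 to 66.0 CPM over the 6 states and 5 libraries, and Srd5a1 ran from 1.15 to 4.86. Over the 32 combinations of state and stage library with at least 50 cells, the correlation of log2(CPM + 1) was 0.77 for Akr1c14 with Akr1c18, -0.76 for Akr1c18 with Hsd11b1, -0.40 for Akr1c14 with Hsd11b1 and -0.74 for Akr1c18 with Cyp1b1. Over the 13 whole libraries Akr1c14 with Hsd11b1 was at 0.43. These points share libraries and are given as a description.

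**Figure D2:**
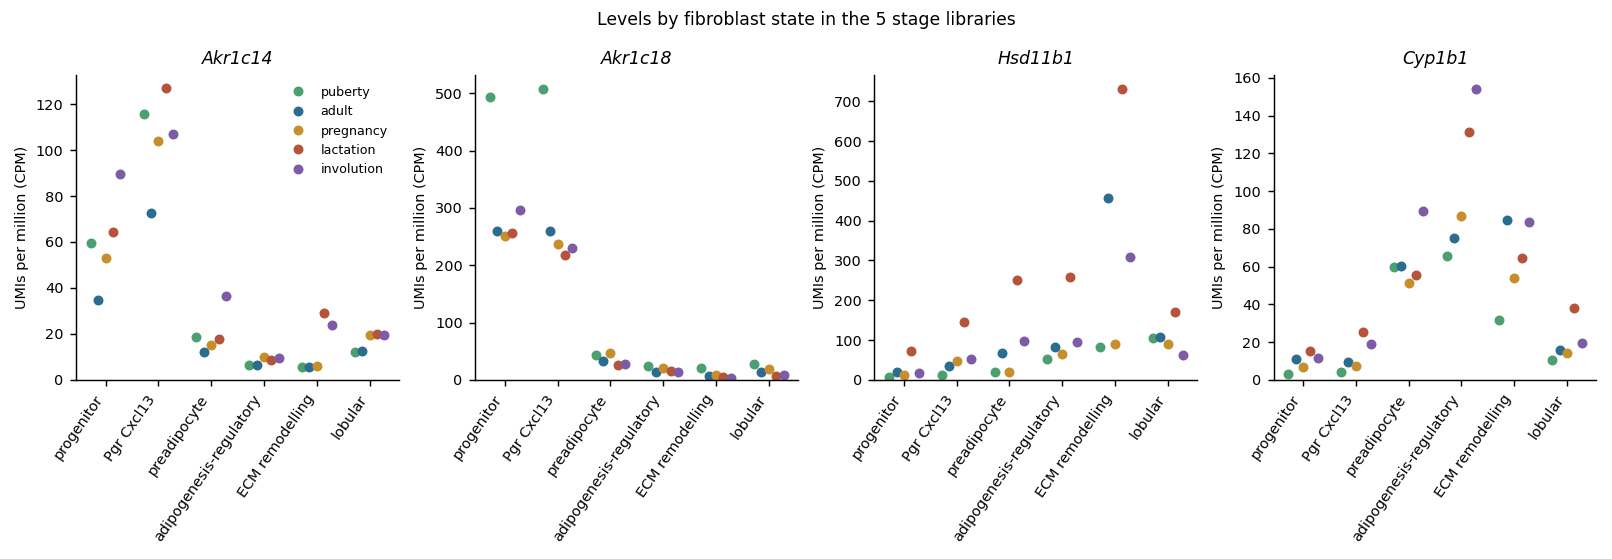
Level of Akr1c14, Akr1c18, Hsd11b1 and Cyp1b1 by fibroblast state in the 5 stage libraries, with states on the horizontal axis, CPM on the vertical axis and a point per library for states of at least 50 cells. Akr1c18 stands at 218 CPM or more in progenitor-like and Pgr Cxcl13-like cells and at 47.2 or less in the other 4 named non-cycling fibroblast states.

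The genes with the most similar pattern were taken over the same 32 points, among 7863 genes with a mean of at least 10 CPM. For Akr1c18 they were Sbsn (r = 0.95), which is itself a progenitor marker used for naming, Adgrg6 (0.93) and Gap43 (0.93), and for Akr1c14 Tgfbr2 (0.89), Prss23 (0.89) and Dyrk2 (0.88). Hsd11b1 was closest to Gabbr1 (0.90), Cyp2d22 (0.89) and Crispld2 (0.86), Cyp1b1 to Srpx (0.94), Kitl (0.92) and Nr2f2 (0.92), and Hsd17b11 to Map3k2 (0.89), Ro60 (0.89) and Dennd4c (0.89). Over the 13 libraries and 7866 genes they were Prex2, Rbpms and Ackr3 for Akr1c14 (0.92, 0.92 and 0.90), Naaa, Tubb4a and Thbd for Akr1c18 (0.96, 0.96 and 0.95), Suz12, Cdc73 and Rsf1 for Hsd11b1 (0.94, 0.93 and 0.93), Rassf2, Stag2 and Atf7 for Hsd17b11 (0.94, 0.94 and 0.94) and Bnip3, Dact3 and Fat1 for Cyp1b1 (0.94, 0.94 and 0.93). No p belongs to these values, and Srd5a1 and Sult1e1 were below 10 CPM.

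The hormone libraries address what a progestin with estradiol does to mammary fibroblasts. Akr1c14 was at 51.7 and 45.2 CPM with placebo and 103.9 and 105.4 with MPA+E. The groups did not overlap, and the log2 fold change was 1.13 ± 0.10 (n = 2 libraries per group, edgeR). For edgeR the value after ± is an approximate SE. It is the size of the log2 fold change divided by the square root of its quasi-likelihood F. Hsd11b1 was at 141 and 135 CPM with placebo and 237 and 235 with MPA+E, again without overlap, a log2 fold change of 0.78 ± 0.10. Without any 1 library these values lay between 1.07 and 1.18 for Akr1c14 and 0.74 and 0.82 for Hsd11b1. Thinned to 3000 UMIs per cell, with 185 to 457 shallower cells left out per library, Akr1c14 was seen in 10.0% and 9.03% of fibroblasts with placebo and 17.8% and 18.6% with MPA+E (24.5% and 21.8%, then 39.9% and 35.2%, before thinning). Hsd11b1 was seen in 27.1% and 26.3%, then 41.0% and 41.3% (46.6% and 44.5%, then 69.97% and 64.8%).

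Sult1e1 stood apart. Placebo libraries had 3 and 5 UMIs (0.0432 and 0.0693 CPM) and MPA+E libraries 338 and 150 (3.88 and 1.65 CPM). Pooled, 488 against 8 UMIs was a ratio of 48.5 (24.4 to 113). The log2 fold change was 5.56 ± 0.62, and 4.88 to 6.02 without any 1 library. The transcripts sat in few cells: 63 of 5152 fibroblasts (1.22%) in MPA+E 1 and 40 of 8697 (0.460%) in MPA+E 2 had a UMI, with up to 37 and 33 UMIs in a single cell, and 3 and 5 cells with placebo, each with 1. In these 2 libraries no Sult1e1 UMI was seen in 31 and 53 Epcam-positive or in 152 and 320 Rgs5-positive barcodes. The Epcam-positive ones were too few to show a share of the size seen in fibroblasts, and the Rgs5-positive ones were few for it. Of the 338 and 150 UMIs, Pgr Cxcl13-like cells held 200 and 77, where 3.34% and 0.876% of cells had a UMI, adipogenesis-regulatory-like cells held 37 and 41 (0.785% and 0.415% of cells) and progenitor-like cells 37 and 21 (1.81% and 0.796%). Lobular-like cells held 39 in MPA+E 1 and none in MPA+E 2. A pericyte-like cluster of 18 and 176 cells that passed the fibroblast limits held 10 and 10. In MPA+E 2 this was 4.93 CPM, and 3.41% of its cells had a UMI, above the 0.876% of Pgr Cxcl13-like cells.

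The remaining genes were lower or overlapped between groups. Akr1c18 was at 148 and 144 CPM with placebo and 60.6 and 97.8 with MPA+E, a log2 fold change of -0.86 ± 0.27, which was -1.31 without MPA+E 2 and -0.52 without MPA+E 1. Cyp1b1 was at 54.1 and 52.4 with placebo and 40.8 and 30.8 with MPA+E (-0.57 ± 0.13). Neither gene's groups overlapped. Hsd17b11 (50.3 and 53.9, then 53.0 and 46.2) and Srd5a1 (2.58 and 2.93, then 3.73 and 2.90) did overlap between groups, with log2 fold changes of -0.07 ± 0.11 and 0.27 ± 0.20. The share of all genes without overlap between placebo and MPA+E was not computed, so nothing is read from the overlap of any of the 7. Of the 7 genes 3 passed the test, all higher. Of 15642 genes tested 4.33% passed (2.69% higher, 1.64% lower), and since the genes were chosen with such levels known nothing is read from that count.

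By state, Akr1c14 was higher with MPA+E in all 6 states with at least 50 cells, by the largest ratios where it was low. ECM remodelling-like cells went from 5.61 and 5.29 CPM with placebo to 24.9 and 26.8, preadipocyte-like from 13.6 and 15.5 to 75.4 and 77.5, and lobular-like from 23.2 and 10.0 to 90.4 and 74.5. Pgr Cxcl13-like cells went from 153 and 148 to 222 and 229. Ratios of the means were 4.74, 5.26, 4.97 and 1.499, and 1.33 in progenitor-like cells.

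Hsd11b1 did not move the same way everywhere. It went from 49.97 and 81.3 CPM to 305 and 302 in Pgr Cxcl13-like cells and from 29.6 and 34.6 to 173 and 120.2 in progenitor-like cells. In ECM remodelling-like cells, its highest state with placebo, it went from 485 and 461 to 314 and 296. Its range over the 6 states was 29.6 to 485 with placebo and 120.2 to 314 with MPA+E. Akr1c18 was lower in its main states, from 338 and 296 to 141 and 203 in progenitor-like and from 273 and 277 to 133 and 175 in Pgr Cxcl13-like cells. Cyp1b1 was lower in preadipocyte-like cells (87.9 and 85.2, then 46.3 and 35.4) and higher in lobular-like cells (13.3 and 17.6, then 26.5 and 20.9), where the counting intervals of placebo 2 and MPA+E 2 overlapped. With each library rebuilt at the placebo state shares, an alternative chosen after seeing the data, the log2 ratio of mean CPM was 0.85 for Akr1c14 and 0.57 for Hsd11b1. Over all fibroblasts at the libraries' own shares it was 1.11 and 0.77. The rebuilt values weight states by their share of UMIs. They use only states with at least 50 cells in every library, so cycling-like and pericyte-like cells were left out of them. The states come from joint clusters whose shares differed with treatment: Pgr Cxcl13-like cells were 7.19% and 8.21% of fibroblasts with placebo and 19.2% and 21.0% with MPA+E, and progenitor-like cells 29.2% and 31.5%, then 13.9% and 18.8%. Whether a cluster holds the same population in both groups was not tested. Clusters without a name held 2.37% and 1.91% of cells with placebo and 2.33% and 1.45% with MPA+E.

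**Figure D3:**
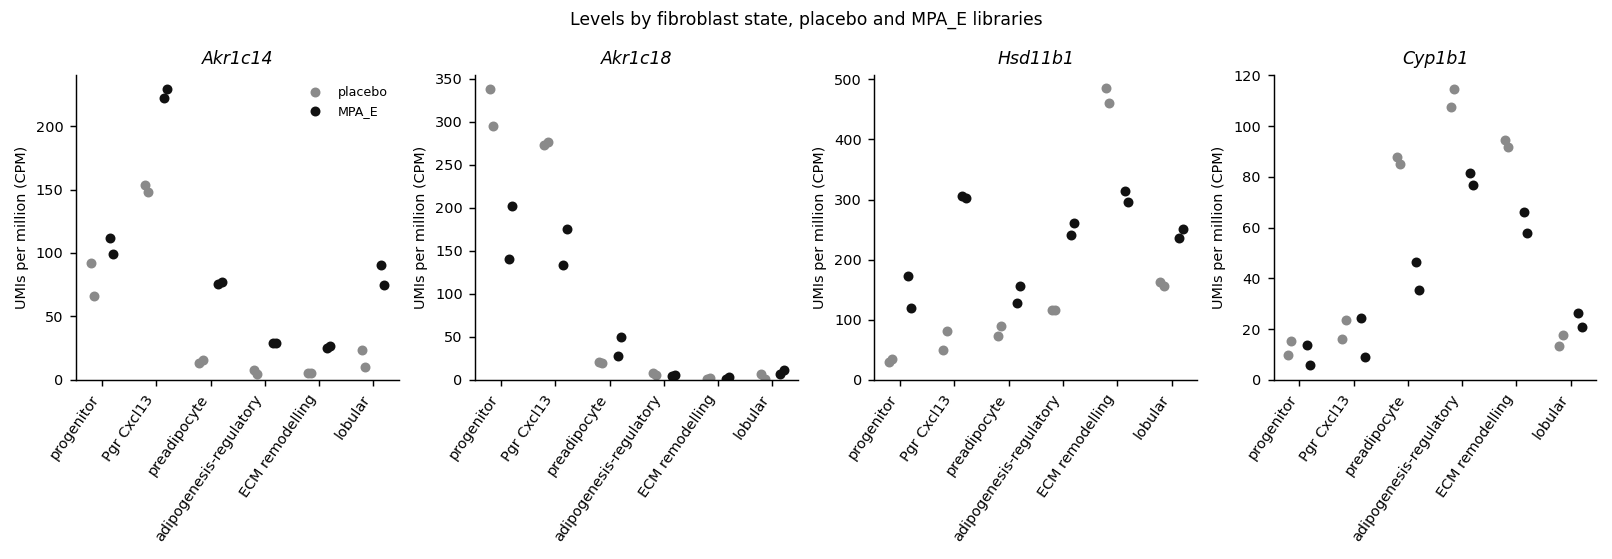
Level of Akr1c14, Akr1c18, Hsd11b1 and Cyp1b1 by fibroblast state in the hormone libraries, with states on the horizontal axis, CPM on the vertical axis, colours for placebo and MPA+E and a point per library. Hsd11b1 in ECM remodelling-like cells is the 1 state where the MPA+E points (314 and 296) lie below the placebo points (485 and 461).

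The adult stage library and the placebo libraries all come from 9-week C57BL/6 wildtype mice, and they were not at equal levels. Placebo means were 1.69-fold the adult value for Akr1c14, 1.499 for Hsd11b1, 1.57 for Cyp1b1, 1.49 for Srd5a1, 1.38 for Hsd17b11 and 1.16 for Akr1c18. The adult library has no replicate, and these differences were not tested.

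Other genes of steroid metabolism were followed as a list of 51, of which 49 were in the matrices. Cyp19a1 (aromatase), Hsd3b1, Hsd3b6, Cyp11b2, Hsd17b3, Hsd17b6 and Akr1c6 had no UMI in any of the 13 libraries, and 31 genes had a mean under 1 CPM. The 16 with a mean of at least 10 CPM held 3 of 12 synthesis and electron donor genes (Por, Fdx1 and Fdxr), 4 of 10 further 17-beta-hydroxysteroid dehydrogenases and 3 of 9 conjugation genes (Papss1, Papss2 and Sult1a1). With MPA+E 27 of the list were tested and 4 rose (14.8%, against 4.33% of all genes), with a median log2 fold change of -0.02 beside 0.01 over all genes. Hsd11b2, which inactivates the glucocorticoid that Hsd11b1 makes, rose from 3.12 and 2.48 CPM to 7.30 and 7.02 (log2 1.37 ± 0.14, edgeR adjusted p = 0.0134). Cyp7b1, an oxysterol and steroid hydroxylase, rose from 6.20 and 5.33 to 15.3 and 13.7 (1.34 ± 0.10, edgeR adjusted p = 0.00778). The phenol sulfotransferase Sult1a1 rose from 11.9 and 10.2 to 24.9 and 25.9 (1.22 ± 0.10, edgeR adjusted p = 0.00966). H6pd rose from 30.9 and 27.1 to 41.97 and 38.9 (0.49 ± 0.08, edgeR adjusted p = 0.0467). Without placebo 1 or placebo 2 no list gene and none of the 7 passed, and 22 or 42 genes did in all.

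The raGFP-Wnt1 libraries address how fibroblasts of a tumour differ from those of the hyperplastic gland of the same mouse. Akr1c14 was at 43.6 and 89.9 CPM in the hyperplastic glands and 23.2 and 5.96 in the tumours. It was 1.88-fold lower in the tumour of mouse 1 and 15.1-fold lower in that of mouse 2, with a log2 fold change of -2.39 ± 0.68 (SE, n = 2 per group, limma-voom). That fit had no term for the mouse. Its estimate of the spread was shared with the puberty and adult libraries, which entered as the normal group. Hsd11b1 was at 315 and 325 in hyperplasia and 130 and 75.5 in tumours, 2.42-fold and 4.305-fold lower (log2 -1.69 ± 0.48). Cyp1b1 was at 74.4 and 60.8 in hyperplasia and 171 and 100 in tumours, 2.29 and 1.65 times the paired gland (log2 0.96 ± 0.30). The fibroblast markers moved as well: Dcn lay at 12473 to 13434 CPM in hyperplasia and 3173 to 5541 in tumours, Pdgfra at 248 to 249 and 117 to 171, and Col1a2 at 4316 to 5699 and 11036 to 13404. Their part in the levels of the 7 genes was not tested. After the same thinning, with 186 to 454 cells left out per library, Hsd11b1 was seen in 49.6% and 49.1% of hyperplasia and 26.0% and 18.1% of tumour fibroblasts (68.1% and 64.1%, then 47.6% and 41.1%, before thinning).

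Akr1c18 was at 48.9 and 101 CPM in hyperplasia and 44.7 and 5.25 in tumours. The tumour of mouse 1 was 1.09-fold below its hyperplastic gland and that of mouse 2 was 19.2-fold below, so the log2 fold change of -2.17 ± 0.98 came mostly from mouse 2 (-0.61 without tumour 2, -3.76 without tumour 1). The same held in part for Akr1c14, at -1.39 and -3.41. Hsd17b11 was at 54.7 and 51.6, then 40.1 and 26.1 (-0.71 ± 0.24), and Srd5a1 at 2.73 and 2.69, then 1.67 and 1.91 (-0.60 ± 0.24). Sult1e1 was too low to be tested: 4 and 8 UMIs in hyperplasia, the 8 in a single cell, and none in 8917 and 4236 tumour fibroblasts, at least 2.86-fold lower with a floor of 3 counts per library.

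No gene's tumour and hyperplasia libraries overlapped, but the share of all genes without overlap was not computed, so nothing is read from this. Of the 6 tested 2 passed, both lower, where 29.3% of 16302 genes passed (15.4% higher, 13.9% lower), and nothing is read from that count. Without hyperplasia 1 or 2 none of the 6 passed, with 242 or 314 genes in all. Without puberty or adult only 1 of the 6 passed, with 2975 and 2946 genes in all.

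By state, Cyp1b1 was higher in the tumours in all 5 states that had at least 50 cells in every library. It went from 17.1 and 12.5 CPM to 139 and 58.8 in progenitor-like cells, from 26.6 and 32.0 to 180 and 116 in lobular-like cells, and from 125 and 111 to 363 and 202 in adipogenesis-regulatory-like cells. Ratios of the means were 6.66, 5.05 and 2.39, and 2.17 in preadipocyte-like and 1.71 in ECM remodelling-like cells. The states come from joint clusters, and lobular-like cells numbered 160 and 74 in hyperplasia and 556 and 422 in tumours, and preadipocyte-like cells 791 and 1214, then 904 and 133. Whether the tumour cells in such a cluster are the same population as its hyperplasia cells was not tested.

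Hsd11b1 was lower in lobular-like cells (443 and 400, then 120 and 83.8) and in preadipocyte-like cells (180 and 254, then 52.0 and 50.5). In ECM remodelling-like cells it was at 561 and 694, then 533 and 239. In progenitor-like cells it was at 65.2 and 33.3, then 52.5 and 11.8, and those groups overlapped. Akr1c18 in progenitor-like cells was at 174 and 279 CPM in hyperplasia and 142 and 31.7 in tumours, against 10.8 or less in the other non-cycling named states. Unnamed clusters held 18.5 and 55.5, then 11.98 and 5.79, and in tumour 2 they gave 67.7% of its Akr1c18 UMIs and progenitor-like cells 23.4%. Akr1c14 in preadipocyte-like cells was at 43.1 and 125.8, then 25.2 and 19.0.

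Names covered less of the tumours. Clusters without a name held 11.3% and 11.9% of hyperplasia and 37.6% and 57.7% of tumour fibroblasts, and no Pgr Cxcl13-like or myofibroblastic-like cluster was named. Progenitor-like cells were 22.1% and 26.5% of hyperplasia and 28.1% and 4.297% of tumour fibroblasts, and that low share belongs to the tumour in which Akr1c18 was 5.25 CPM. With the state shares of hyperplasia, an alternative chosen after seeing the data, the log2 ratio of mean CPM was -1.34 for Akr1c14, -1.34 for Akr1c18, -0.97 for Hsd11b1 and 1.18 for Cyp1b1. Over all fibroblasts at the libraries' own shares the ratio was -2.19, -1.58, -1.64 and 1.00 in that order. The rebuilt values weight states by their share of UMIs and use only states with at least 50 cells in every library. They therefore leave out cycling-like cells (5.63% and 14.1% of tumour UMIs), which the second set of ratios includes.

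**Figure D4:**
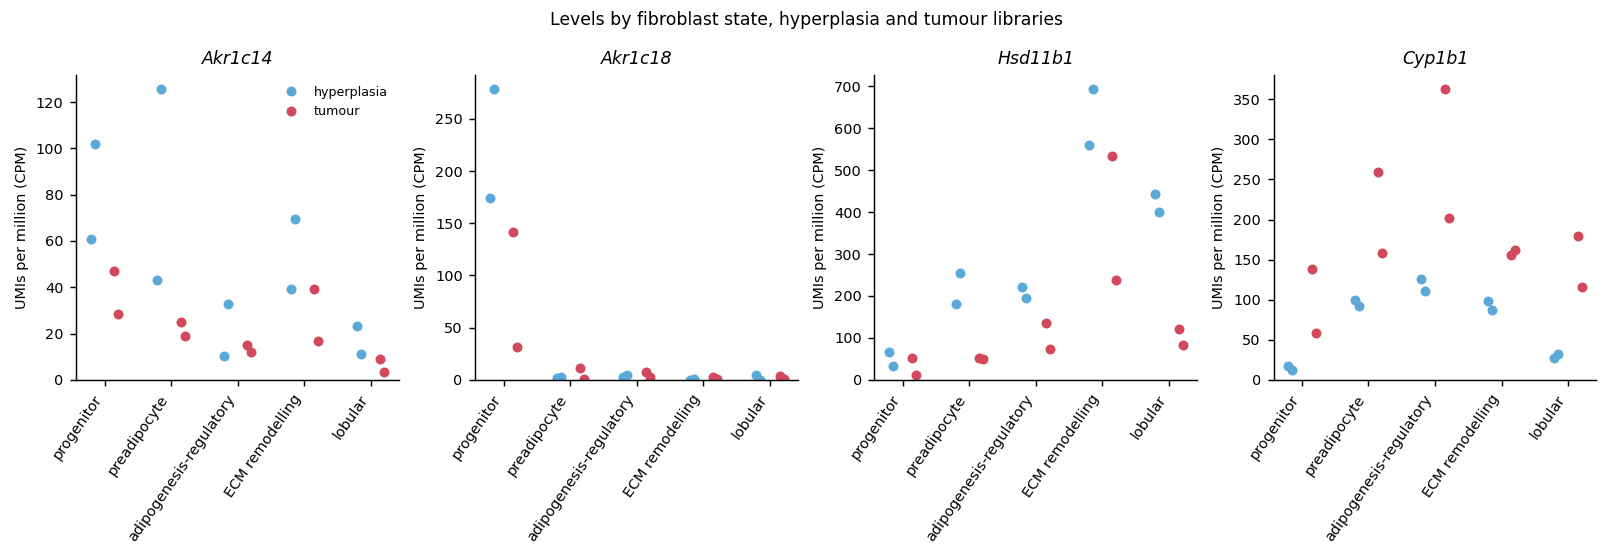
Level of Akr1c14, Akr1c18, Hsd11b1 and Cyp1b1 by fibroblast state in the raGFP-Wnt1 libraries, with states on the horizontal axis, CPM on the vertical axis, colours for hyperplasia and tumour and points for mouse 1 and mouse 2 in that order. Cyp1b1 tumour points lie above the hyperplasia points in each of the 5 states present in all libraries, from 58.8 and above against 17.1 and below in progenitor-like to 202 and above against 125 and below in adipogenesis-regulatory-like cells.

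Of the steroid list 28 genes were tested in tumours against hyperplasia, and 1 rose and 3 fell (14.3%, against 29.3% of all genes), with a median log2 fold change of -0.02 beside -0.01 over all genes. Papss2, which makes the sulfate donor, rose from 15.6 and 14.6 CPM to 24.6 and 29.3 (0.84 ± 0.15, limma adjusted p = 0.0140). Sult1a1 fell from 14.5 and 14.3 to 4.53 and 3.47 (-1.85 ± 0.26, limma adjusted p = 0.00814). Por, the electron donor of microsomal cytochromes P450, fell from 67.9 and 60.2 to 29.5 and 38.8 (-0.92 ± 0.17, limma adjusted p = 0.0155). Hsd17b7 fell from 24.1 and 21.4 to 14.8 and 17.0 (-0.52 ± 0.15, limma adjusted p = 0.0459). These calls did not hold without hyperplasia 1 or 2.

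Hyperplastic glands were also set against the puberty and adult libraries as normal, in the same fit. Strain, sort and age all differ with this contrast and cannot be told apart from hyperplasia, and it shares the hyperplasia libraries with the contrast above. Hsd11b1 was at 34.8 and 92.0 CPM in normal and 315 and 325 in hyperplasia (log2 2.47 ± 0.47, 1.80 without puberty and 3.15 without adult). Cyp1b1 was at 24.0 and 33.9, then 74.4 and 60.8 (1.20 ± 0.29), and Hsd17b11 at 30.8 and 37.8, then 54.7 and 51.6 (0.60 ± 0.24). Akr1c18 was at 272 and 125, then 48.9 and 101 (-1.46 ± 1.00, and -2.02 to -0.85 without any 1 library), and Srd5a1 at 2.46 and 1.84, then 2.73 and 2.69 (0.34 ± 0.25). Only Akr1c14 (50.7 and 28.8, then 43.6 and 89.9, 0.67 ± 0.67) and the sparse Sult1e1 overlapped between groups. For this contrast too, the share over all genes was not computed, and nothing is read from the overlap.

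Of the 6 genes tested 2 passed, both higher, where 14.0% of genes did (7.70% higher, 6.29% lower). With the mouse as a block 3 passed, and nothing is read from these counts. That block marks only mouse 2 of the raGFP-Wnt1 libraries, so its contrast sets hyperplasia at the level of mouse 1 against normal. The steroid list had 28 tested and 2 lower (7.14%, median log2 0.08 beside -0.01 over all genes). Hsd11b2 fell from 6.51 and 2.84 CPM to 0.673 and 0.387 (-3.04 ± 0.61, limma adjusted p = 0.0317) and the lipid droplet enzyme Hsd17b13 from 1.29 and 1.21 to 0.212 and 0.179 (-2.66 ± 0.39, limma adjusted p = 0.0172). The mouse block, with that different contrast, gave 1 list gene and 3582 genes in all against 2280. Counts rested on single libraries: 8 genes passed without puberty, 183 without adult, 2 and 1 without hyperplasia 1 and 2, and 4810 and 4799 without tumour 1 and 2. Of the 7 genes and of the list, none passed without puberty, hyperplasia 1 or hyperplasia 2, 1 of each without adult, and 4 of the 7 and 5 of the list without tumour 1 or 2.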

How the data were processed

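Single-cell 3′ RNA-seq of sorted mammary stroma from 13 libraries was used. The authors deposited filtered matrices of raw UMI counts for 32285 genes, made with Cell Ranger 6.1.2 on mm10 per the submitters' processing notes. From these counts, fibroblast barcodes were kept by the limits given above and summed per library, with groups taken from the sample labels. The 7 genes, the steroid list and the tests were chosen with earlier results of these data known.

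MPA+E was compared with placebo by edgeR 4.0.16 quasi-likelihood (4 libraries), and tumour, hyperplasia and normal (puberty and adult) by limma 3.58.1 voom in 1 fit of 6 libraries, both with TMM, filterByExpr and Benjamini-Hochberg adjustment over all genes tested, called at 0.05 (R 4.3.3). The scripts were tested on simulated counts. States came from Seurat 5.3.0 (1000 variable features, 30 dimensions, resolution 0.3) within the stage, hormone and raGFP-Wnt1 libraries. Doublets (Scrublet in scanpy 1.11.5, 3.86% to 10.6% of barcodes within the limits) were kept and removed in an alternative. Genes named are the 7, list genes past the threshold or, by count, with a mean of at least 10 CPM, and the 3 most similar to each of the 7 by Pearson r of log2(CPM + 1). Some list genes named for their role or for 0 UMIs fall outside that rule and were chosen after their values were seen. The values of 1 list gene are not reported here.

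The labels tie each tumour to the hyperplastic gland of the same mouse. Their deviations from the group means correlated at 0.0903 over 16302 genes. The main fit had no mouse term, and the mouse block was fitted only as an alternative. Alternatives were other normalizations and tools (DESeq2 1.42.0), no low-count filter, other barcode limits, a replicate block and leaving out each library. Fibroblast depth was 47521842 to 102522735 UMIs per library, and counting intervals do not cover variation between mice.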

Additional observations from a re-analysis of the deposited data

Results flagged for a closer look

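With MPA+E against placebo, 4 of the 7 genes had both MPA+E libraries above both placebo libraries in some fibroblast states and below them in others. The share of all genes that do so was not computed, so nothing is read from this count. The values are ratios of the mean CPM of the 2 MPA+E libraries to that of the 2 placebo libraries, and the differences between states were not tested. Hsd11b1 was higher in Pgr Cxcl13-like (4.62), progenitor-like (4.57), adipogenesis-regulatory-like (2.16), preadipocyte-like (1.76) and lobular-like cells (1.53), and lower in ECM remodelling-like cells (0.644). Akr1c18 was lower in progenitor-like (0.542), Pgr Cxcl13-like (0.561) and adipogenesis-regulatory-like cells (0.687), and higher in preadipocyte-like cells (1.89), where it was at 21.3 and 19.6 CPM with placebo. Cyp1b1 was lower in preadipocyte-like (0.472), ECM remodelling-like (0.665) and adipogenesis-regulatory-like cells (0.712), and higher in lobular-like cells (1.53). Hsd17b11 was higher in adipogenesis-regulatory-like cells (1.08) and lower in Pgr Cxcl13-like cells (0.812). The 95% counting intervals of a placebo and an MPA+E library overlapped for Hsd17b11 and Akr1c18 in adipogenesis-regulatory-like cells and for Cyp1b1 in lobular-like cells, so neither the only higher state of Cyp1b1 nor that of Hsd17b11 was separated beyond counting error.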

How the results depend on the processing

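No direction of a summarised result reversed under any alternative except Hsd17b11 with MPA+E, whose log2 fold change near 0 ran from -0.18 without placebo 1 to 0.05 without placebo 2. Other normalizations, barcode limits and doublet removal kept the counts of genes called within 1.5 times. For MPA+E against placebo, DESeq2 called 1358 genes and 5 of the 7, and the replicate block called 2451 genes, 8 list genes and 5 of the 7. Placebo and MPA+E libraries share only a replicate number (deviations correlated at 0.396), so that block stands as an alternative. With no low-count filter, 4 of the 7 were called in tumours and 1 in hyperplasia against normal. The share of all genes called under these alternatives is not given here, so nothing is read from the counts of the 7 or of the list. The mouse block called 3582 genes and 1 list gene for hyperplasia at the level of mouse 1 against normal, which differs from the main contrast. Without any 1 library, the genes called ran from 22 to 900 (MPA+E), 242 to 7120 (tumour) and 1 to 4810 (hyperplasia), the list genes from 0 to 3, 0 to 10 and 0 to 5, and the 7 from 0 to 4 in each. The lone library left in a group was assumed to vary like the others. TMM scaling put the stage range of Hsd11b1 at 8.81-fold and of Hsd17b11 at 1.72-fold, and a clustering resolution of 0.6 put Cyp1b1 in its highest state at 3.68-fold the others. The causes were not tested. Srd5a1 had 120 to 325 UMIs per library and Sult1e1 at most 8 outside MPA+E, and 2 libraries per group limit every test.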
